A study of Mus musculus with 2 samples.

Results

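This account covers the histone genes of mouse fetal liver. They were chosen by name: every protein-coding gene of GENCODE release M21 whose symbol begins with Hist1, Hist2, Hist3 or Hist4, called replication-dependent here, together with the variant genes H2afx, H2afz, H2afv, H2afy, H3f3a, H3f3b and H1f0. The rule gave 74 genes, and 71 of them had a row among the 43346 mouse gene rows, 64 replication-dependent and 7 variant. Hist2h2bb, Hist1h2bm and Hist1h2bh, all of them H2B genes, had no row and were not analysed here. Both livers were embryonic, at 14.5 days, from B6NCrl mice with no treatment or allele in the labels, and formed 1 group of 2 biological replicates. The input was 10 ng of total RNA above 200 nucleotides per library, plus synthetic spike-in RNA. The livers were collected on different days, the labels name the same donor record for both, and they call each sample a single liver and also a pool of both sexes. With no second group there was no contrast to test, so no p-value is given and every comparison is set against the difference between these 2 livers.

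Histones are the proteins around which DNA is wound: H2A, H2B, H3 and H4 form the core of the nucleosome, and H1 binds the DNA that links nucleosomes. Most core histone is made from replication-dependent genes, which lie in clusters, lack introns and are transcribed mainly while DNA is copied. Their mRNAs usually end in a conserved stem-loop bound by the protein Slbp in place of a poly(A) tail. Variant genes lie alone, mostly have introns and a poly(A) tail, and are also transcribed outside DNA synthesis. The fetal liver at this age is a site of rapid blood formation, so many of its cells divide.

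The libraries held 39998450 (replicate 1) and 28848861 (replicate 2) estimated reads, 37059776 and 26908926 of them on mouse genes. Red cell and hepatoblast markers were high (medians of 833 and 812 TPM, and of 629 and 638 TPM, in replicates 1 and 2) and the 3 neuron and 3 germ cell markers were low, with medians of 0.01 and 0.02 TPM and of 0.08 and 0 TPM and no single value above 0.34 TPM. TPM is a gene's length-scaled share of the transcripts in a library, given on a fixed scale. In bulk tissue, fewer cells of a type and less RNA per cell cannot be told apart. All positions are on GRCm38 (mm10).

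The stem-loop is the sequence that sets most of these genes apart from other mRNAs, so it is shown first. A stem-loop was taken as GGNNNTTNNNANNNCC on the sense strand of an annotated M21 transcript, with both 6-base arms pairing in full (N is any base). It was found in 44 of the 64 replication-dependent genes and in 1 of the 7 variants, H2afx, against 0.658% of all protein-coding genes (144 of 21901). It began 21 to 58 nucleotides after the stop codon, with a median of 31.5 (n = 44). The examples below show the most abundant gene, its copy with an identical coding sequence, 2 other abundant genes and 4 departures in form or family. They run 5′ to 3′ with the paired arms in capitals.
Hist1h2ap, chr13:21833027-21833056, minus strand: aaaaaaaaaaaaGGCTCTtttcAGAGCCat
Hist1h2ao, chr13:21810886-21810915, plus strand: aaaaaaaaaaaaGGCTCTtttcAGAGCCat
Hist1h2ae, chr13:23570666-23570695, minus strand: aaaaaaaacaaaGGCTCTtttcAGAGCCat
Hist1h4d, chr13:23581938-23581967, plus strand: ccaaaaaccaaaGGCCCTtttcAGGGCCac
Hist1h4b, chr13:23757354-23757383, plus strand: actgttacaaaaGGTCCTtttcAGGACCac
Hist1h3g, chr13:23535877-23535906, plus strand: aaccactttaaaGGCTCTtcttAGAGCCac
Hist1h1c, chr13:23739500-23739529, plus strand: aacaatccaaaaGGCTCTtttcAGAGCCac
H2afx, chr9:44335228-44335257, plus strand: cacctccacaaaGGCCCTtttaAGGGCCac

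There were 9 forms of the stem-loop. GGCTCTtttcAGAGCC was carried by 24 genes of the H1, H2A, H2B and H3 families and by no H4 gene. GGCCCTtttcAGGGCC was carried by 7 genes, all of them H4. H2afx, whose protein is phosphorylated at sites of DNA damage, carried a form with the H4-type arms and a loop ending in a. Of the 20 replication-dependent genes in which no stem-loop was found, 14 have annotated transcripts that stop within 10 nucleotides of the stop codon, so they hold almost no sequence after the coding region to search. The genes with a stem-loop had a median level of 7.26 TPM and those without one a median of 5.91 TPM. Among genes with a stem-loop, the 21 whose M21 transcript ends within 60 nucleotides after it had a median of 7.04 TPM and the 22 that run on for over 100 nucleotides a median of 8.83 TPM. Levels were counted on the annotation the authors used, in which some of these transcripts are shorter. Hist1h4d, for one, has 393 nucleotides there and 1138 in M21. The poly(A) signal was also read from M21. A poly(A) signal, AATAAA or ATTAAA on the sense strand in the last 40 nucleotides, was present in an annotated transcript of 17 of the 64 replication-dependent genes (26.6%), of 6 of the 7 variants and of 76.0% of protein-coding genes. The 17 had a median of 3.06 TPM and the other 47 a median of 7.60 TPM, so the median was lower with an annotated signal than without.

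Histone transcripts summed to 11141 TPM in replicate 1 and 11255 TPM in replicate 2, which was 1.24% and 1.25% of mouse TPM and 0.755% and 0.740% of mouse reads. The replication-dependent genes supplied 7474 and 7408 TPM, and the 7 variants 3667 and 3847 TPM. Hist1h2ap, which encodes H2A, supplied 51.2% and 50.1% of all histone TPM by itself. Without it the other 63 replication-dependent genes summed to 1770 and 1768 TPM, less than the 7 variants in both livers. Per gene, the median was 6.56 and 6.42 TPM for replication-dependent genes, 138 and 157 TPM for variants, and 0.99 and 1.07 TPM for all protein-coding genes. How well RNA without a poly(A) tail was captured was not tested. Levels of replication-dependent genes and variants are therefore compared as sequenced, not as present in the cells.

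Detection was broad and the levels were steep. In both livers 58 of the 71 genes reached 1 TPM, against 49.2% of protein-coding genes, and 9 reached 100 TPM, against 3.69%. Those 9 were Hist1h2ap, Hist1h4d, Hist1h3i, Hist1h2ae, Hist1h2bc and the variants H3f3a, H2afz, H3f3b and H2afx. The 5 replication-dependent genes among them held 6811 of 7474 TPM in replicate 1 and 6733 of 7408 TPM in replicate 2. At the other end, 37 replication-dependent genes stayed under 10 TPM in both livers and summed to 121 and 116 TPM. Nearest to the 1 TPM threshold by mean level lay Hist1h2be, an H2B gene at 0.92 and 1.20 TPM, and Hist1h4f, an H4 gene at 0.60 and 1.28 TPM.

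**Figure D1:**
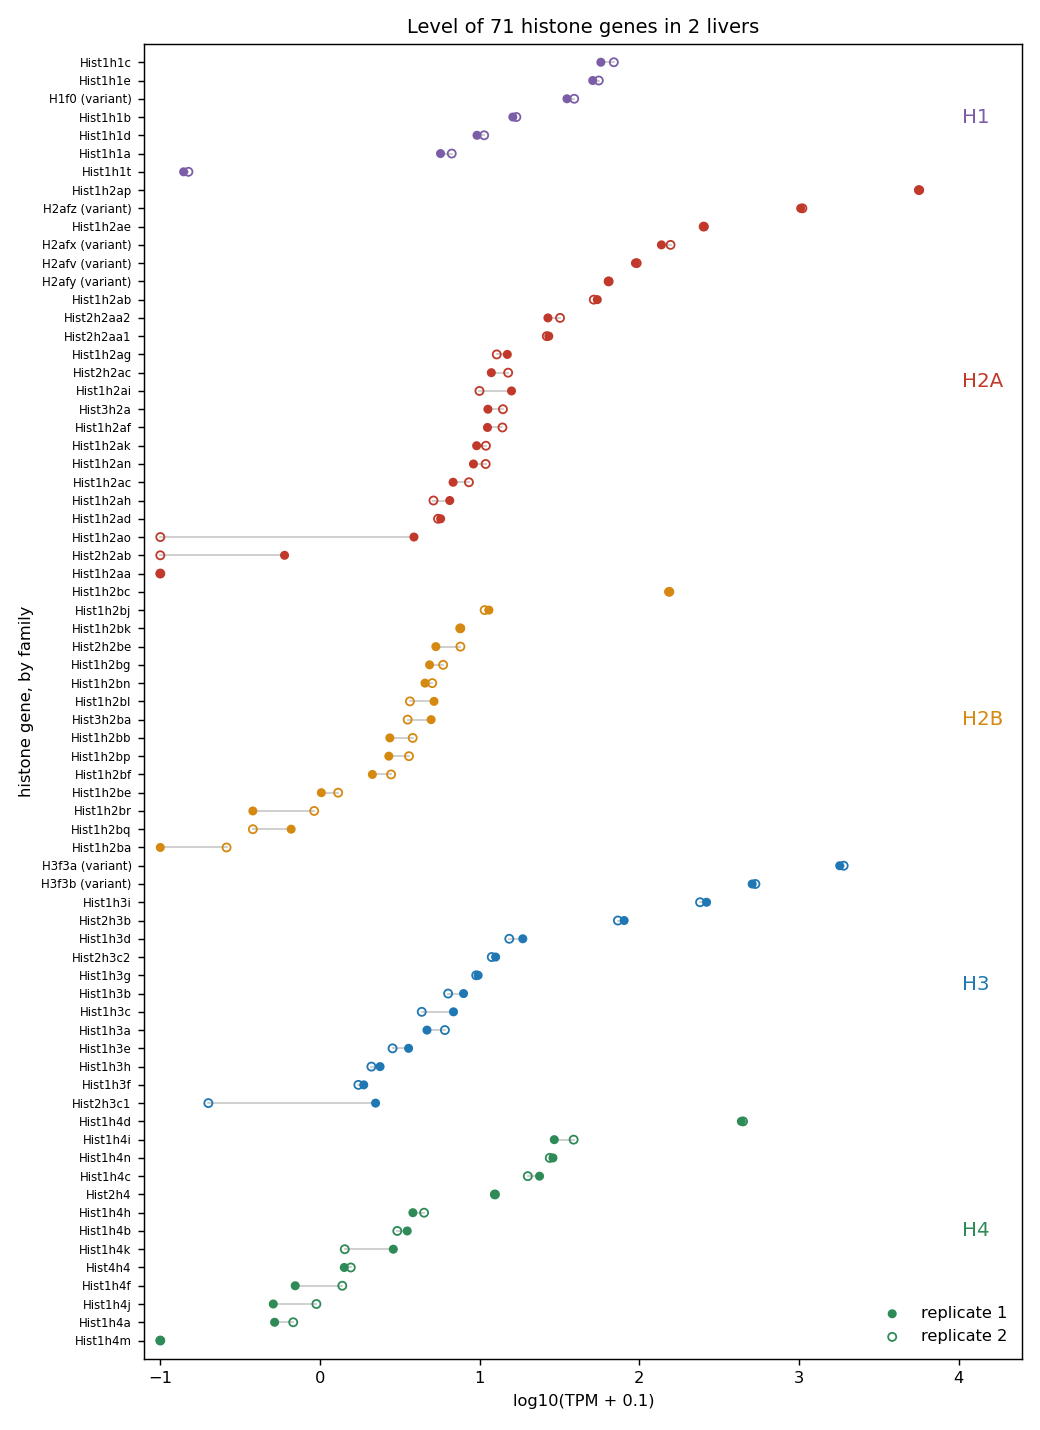
Level of the 71 histone genes, grouped by family; the x axis is log10 of TPM plus 0.1, filled points are replicate 1 and open points replicate 2. Each core histone family has 1 or a few genes far above the rest while H1 steps down gradually, and the points of the 2 livers lie close together except for low genes such as Hist1h2ao and Hist2h3c1.

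The families were not equal. Summed over its members, H2A stood at 7495 and 7476 TPM, H3 at 2724 and 2813 TPM, H4 at 542 and 558 TPM, H2B at 205 and 210 TPM and H1 at 175 and 198 TPM. The order of these sums was the same in both livers, and each step between neighbours exceeded the difference between the livers except that between H2B and H1. H1 differed more between the livers than it differed from H2B in replicate 2. Among replication-dependent genes, H2A exceeded H2B 30.1-fold and 29.1-fold, and 2.29-fold and 2.23-fold with Hist1h2ap set aside. The H2B sum lacks Hist2h2bb, Hist1h2bm and Hist1h2bh, which had no row, while no gene of the rule in the other families lacked one. Variant genes outside the rule, such as Cenpa and H2afj, are in none of these sums or of the variant shares below. Replication-dependent H3 stood at 0.763 and 0.669 of H4, and H2B at 0.378 and 0.376 of H4. The nucleosome core holds its 4 histones in equal numbers, while these mRNA sums did not stand at equal levels.

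**Figure D2:**
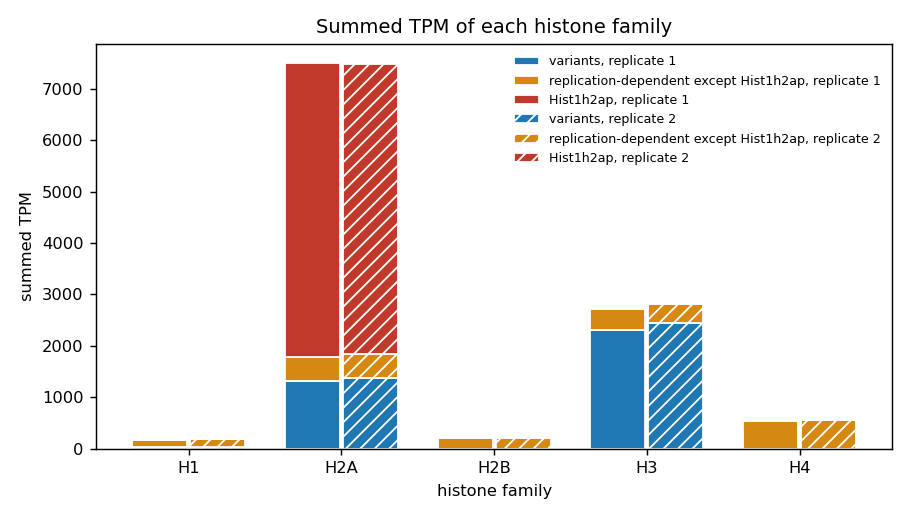
Summed TPM of each histone family in replicate 1 (plain bars) and replicate 2 (hatched bars), split into variants, Hist1h2ap and the other replication-dependent genes. Hist1h2ap makes up most of the H2A bar, and variants make up most of the H3 bar.

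H2A held the widest range of levels. Hist1h2ap (ENSMUSG00000094777.2, chromosome 13, 21833026 to 21833507, minus strand, a transcript of 482 nucleotides) was read 91366 and 62764 times by the estimated counts, which is 5704 and 5639 TPM. That made it the 8th most abundant of 21474 protein-coding genes by mean TPM, with livers that differed by -0.02 on the log2 scale. The next replication-dependent H2A gene, Hist1h2ae (chromosome 13, 23570517 to 23571220), stood at 255 and 253 TPM.
Hist1h2ab followed at 54.5 and 51.8 TPM, and the paired genes Hist2h2aa1 and Hist2h2aa2 at 27.0 and 26.3 TPM and at 26.7 and 31.8 TPM. These last 4 values overlap, and the coding sequences of both genes are identical over 393 nucleotides. Below them came 7 genes that reached 10 TPM in at least 1 liver.
Hist1h2ag stood at 14.8 and 12.7 TPM, Hist1h2ai at 15.7 and 9.88 TPM, Hist2h2ac at 11.7 and 15.0 TPM, and Hist3h2a at 11.2 and 13.9 TPM. Hist1h2af stood at 11.1 and 13.8 TPM, Hist1h2ak at 9.48 and 10.9 TPM and Hist1h2an at 9.05 and 10.8 TPM. The order of these 7 genes differed between the livers, so their ranks are not separated by these data.

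The H2A variants have separate roles. H2afz encodes H2A.Z, found at promoters and enhancers, and stood at 1026 and 1051 TPM. H2afv encodes the closely related second H2A.Z protein and stood at 94.5 and 96.2 TPM, so H2afz exceeded it 10.9-fold in both livers. H2afx stood at 138 and 157 TPM. H2afy encodes macroH2A1, a large H2A with an added macro domain, and stood at 64.2 TPM in both livers. The 4 variants took 17.6% and 18.3% of H2A TPM, and 73.8% and 74.5% with Hist1h2ap set aside.

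In H3 the variants led. H3f3a and H3f3b, which both encode H3.3, the H3 laid down outside DNA replication, stood at 1801 and 1906 TPM and at 510 and 534 TPM. H3f3a exceeded H3f3b 3.53-fold and 3.57-fold, and together they took 84.8% and 86.7% of H3 TPM.
Hist1h3i (chromosome 13, 21782960 to 21783370) led the replication-dependent H3 genes at 264 and 240 TPM. Hist2h3b followed at 80.3 and 73.4 TPM, Hist1h3d at 18.5 and 15.2 TPM and Hist2h3c2 at 12.5 and 11.8 TPM. All 4 were lower in replicate 2, and the other 8 replication-dependent H3 genes stayed under 10 TPM.

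H4 and H2B were each dominated by a single gene. Hist1h4d (chromosome 13, 23581598 to 23582735) stood at 436 and 446 TPM, against 28.7 and 27.4 TPM for Hist1h4n, 29.3 and 38.7 TPM for Hist1h4i and 23.6 and 19.9 TPM for Hist1h4c. Hist2h4 stood at 12.3 and 12.4 TPM, and the other 8 H4 genes stayed under 10 TPM. Hist1h4d thus exceeded every other H4 gene by more than the livers differed.
Hist1h2bc (chromosome 13, 23684199 to 23692908) stood at 153 and 154 TPM, and Hist1h2bj at 11.3 and 10.7 TPM. The other 13 measured H2B genes stayed under 10 TPM.

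H1, the linker histone, was led by Hist1h1c at 57.4 and 69.2 TPM and Hist1h1e at 51.0 and 55.7 TPM. H1f0, a variant associated with cells that have stopped dividing, stood at 35.2 and 39.1 TPM, or 20.1% and 19.7% of H1 TPM. Hist1h1b stood at 16.04 and 16.9 TPM and Hist1h1d at 9.53 and 10.6 TPM, while Hist1h1a reached 5.59 and 6.59 TPM. The order of these 6 genes was the same in both livers.

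The genes known from the male germ line were at or near 0. Hist1h1t, the testis H1, had 1 read in each library (0.04 and 0.05 TPM). Hist1h2ba, a testis H2B, was listed at 0 and 0.16 TPM, and its neighbour Hist1h2aa was listed at 0 in both. For Hist1h2aa, 3 reads, the limit that a count of 0 allows, would be 0.247 and 0.355 TPM. Hist1h4m was also listed at 0 in both, but 88.1% of its windows of 100 nucleotides recur in other genes. Its deposited posterior mean TPM was 0.59 and 0.96, with a posterior SD of 109% and 106% of the posterior mean count. Its level is therefore not limited by a count of 0. Hist1h4n, which has the same coding sequence, was listed at 28.7 and 27.4 TPM.

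High and low genes stood side by side within the clusters. A cluster was a run of histone genes less than 100 kb apart, and the Hist1 genes of chromosome 13 fell into 4. The 28 genes between 23531050 and 23764406 summed to 1140 and 1163 TPM, and the 17 genes between 21715763 and 21837530 to 6069 and 5973 TPM, or 365 and 333 TPM without Hist1h2ap. The 5 genes between 22035164 and 22043676 summed to 69.3 and 74.6 TPM, and the 2 at 23933773 to 23934851, Hist1h2ba and Hist1h2aa, to 0 and 0.16 TPM. The 9 Hist2 genes of chromosome 3 (96219865 to 96269141) summed to 178 TPM in both livers, the 2 Hist3 genes of chromosome 11 to 16.04 and 17.3 TPM, and Hist4h4 on chromosome 6 stood at 1.32 and 1.46 TPM. By median per gene the 17-gene, 28-gene and 9-gene clusters stood at 4.32, 5.80 and 12.3 TPM, so the high sum of the first rests on Hist1h2ap.

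**Figure D3:**
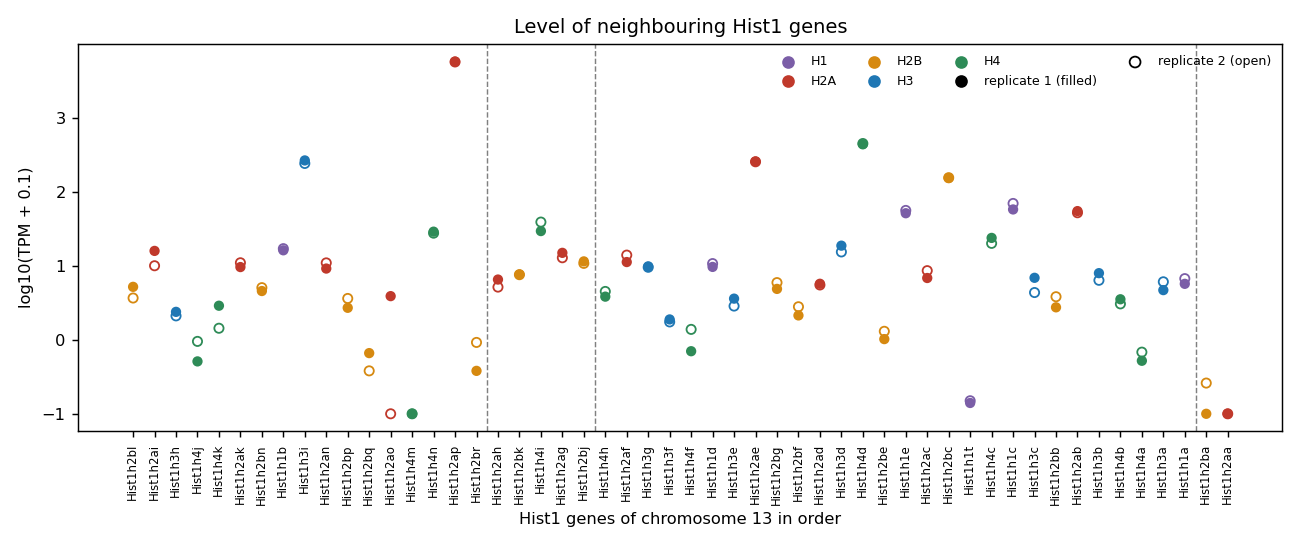
Level of the Hist1 genes of chromosome 13 in genome order; the y axis is log10 of TPM plus 0.1, filled points are replicate 1, open points replicate 2, and dashed lines part the clusters. High genes such as Hist1h2ap, Hist1h4d, Hist1h3i and Hist1h2ae stand beside neighbours that are lower by an order of magnitude or more.

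Neighbouring H2A and H2B genes often start back to back from a shared promoter region. There were 12 such pairs, with 176 to 306 bases between the starts, and the H2A gene was the higher by mean TPM in 9. The 3 most unequal pairs were those of the abundant genes. Hist1h2ap stood at 5704 and 5639 TPM beside Hist1h2br at 0.28 and 0.82 TPM, the latter with a posterior SD of 47.6% and 37.2%. Hist1h2ae exceeded Hist1h2bg (4.76 and 5.81 TPM) 53.6-fold and 43.5-fold, and in the opposite direction Hist1h2bc exceeded the H2A gene Hist1h2ac (6.72 and 8.47 TPM) 22.7-fold and 18.2-fold. The most equal pairs were Hist1h2ag with Hist1h2bj, at ratios of 1.31 and 1.19, and Hist1h2bk with Hist1h2ah, at 1.17 and 1.48.

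The promoters shared letters that the choice of genes had not used. In the RefSeq windows of 250 bases before to 50 after the start (GRCm38.p6), CCAAT on either strand was present in 51 of 60 windows of replication-dependent genes (85.0%, 59 genes matched) and in 37.4% of all 32851 windows. TATAAA on either strand was present in 58.3% of the former and 13.6% of all. Of 6 variant windows, 4 held CCAAT and 1 held TATAAA. Stretches of 100 bases upstream of the most abundant H2A and H4 genes are shown with these letters in capitals, read on the strand of the gene. That of Hist1h2ap ends at the base before its GENCODE start, and that of Hist1h4d at the base before its RefSeq start, which lies upstream of the GENCODE start given above.
Hist1h2ap, chr13:21833508-21833607, minus strand: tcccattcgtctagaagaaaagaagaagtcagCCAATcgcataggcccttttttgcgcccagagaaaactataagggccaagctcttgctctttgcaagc
Hist1h4d, chr13:23581468-23581567, plus strand: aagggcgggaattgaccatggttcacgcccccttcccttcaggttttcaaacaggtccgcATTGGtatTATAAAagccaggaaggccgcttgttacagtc

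Hist1h2ap also carried a run of A that few replication-dependent genes share. Over the M21 sequences of the quantified transcripts, 4 of 64 replication-dependent genes held 10 or more A in a row (6.2%), and the median longest run was 5. Among all protein-coding genes 15.8% had a protein-coding transcript with such a run, and so did 2 of 7 variants, H3f3b (12) and H2afy (10). The 4 were Hist1h2ap and Hist1h2ao with 12 each, Hist1h2be with 11 and Hist1h2ac with 15. In Hist1h2ap and Hist1h2ao the run lies directly before the stem-loop in the sequences shown above. In Hist1h2ac and Hist1h2be it lies after the stem-loop, and these genes stood at 6.72 and 8.47 TPM and at 0.92 and 1.20 TPM. M21 draws Hist1h2ac at 2482 nucleotides, against 476 in the annotation the authors used. For the longest Hist1h2be transcript these lengths are 2506 and 2433 nucleotides. Hist1h2ao, with the same run and the same coding sequence, was listed at 3.78 and 0 TPM. Its posterior SD was 43.9% and 103% of the posterior mean count, so its level is poorly known. Hist1h2ae, at 255 and 253 TPM, had a longest run of 8. Hist1h3i, at 264 and 240 TPM, had a longest run of 2, but its annotated transcript ends at the stop codon. The part of the run in the level of Hist1h2ap was not tested.

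Near-identical copies limit how reads can be assigned. Replication-dependent genes of equal coding length had a median identity of 96.4% in H2A (106 pairs), 97.5% in H2B (66 pairs), 97.2% in H3 (66 pairs) and 93.9% in H4 (78 pairs). The variants stood further off: H3f3a was 77.1% to 78.1% identical and H3f3b 80.5% to 81.8% identical to the 12 replication-dependent H3 genes. Hist1h4d, which carries most H4 TPM, was 87.2% to 94.2% identical to the other H4 genes. For 52 genes with a transcript of matching length, the share of windows of 100 nucleotides also found in another gene was counted. Any M21 gene on either strand counted, including genes that overlap the histone gene and genes with no quantified row. The share is therefore not of near-identical copies alone. The median for replication-dependent genes was 58.2% (n = 46), 4 genes shared no window (H2afv, Hist1h1b, Hist2h2be, Hist2h4), and 4 shared all (Hist2h2aa1, Hist2h2aa2, Hist2h3b, Hist2h3c1).

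The deposited tables also give each count a posterior mean and a posterior SD, the spread left by the division of shared reads. Genes with a posterior mean count of at least 10 in both livers were taken, which differ slightly from those with 10 estimated reads. The SD passed 10% of the posterior mean in both livers for 24 of the 63 such histone genes, against 1.47% of protein-coding genes counted the same way. All 24 were replication-dependent (of 56), and none of the 7 variants passed. The median posterior SD was 0.22% for 15 genes with under 25% of windows shared, 8.38% for 15 genes with 25 to 75% shared and 23.9% for 15 genes above that. Over these 45 genes, which share libraries and reads, the Spearman correlation between both measures was 0.757, given as a description.
Hist1h2ap had the lowest value of the top group, at 0.09% and 0.11% with 353 of its 383 windows (92.2%) shared, while Hist1h2ao, with 92.7% shared, stood at 43.9% and 103%. The shared windows of Hist1h2ap recur in 14 other histone genes of the set. What part of its reads came from the windows found in no other gene cannot be read from these tables. The rows of Hist2h2aa1 (14.6% and 16.2%) and Hist2h2aa2 (17.6% and 16.5%) are better read as a sum than singly.

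The 2 livers gave close values. On log2(TPM + 1), which understates differences of low genes, the median difference of replicate 2 from replicate 1 was 0.01 over 61 histone genes whose mean reached 1 TPM, against 0.10 over 11741 genes with the same filter. By class the median was -0.01 for 54 replication-dependent genes and 0.07 for 7 variants. A difference of 2-fold or more was seen in 2 histone genes, against 0.758% of all genes. They were Hist1h2ao (3.78 and 0 TPM) and the H3 gene Hist2h3c1 (2.13 and 0.10 TPM), with posterior SDs of 43.9% and 103%, and of 55.6% and 49.9%. For Hist2h3c1 the deposited posterior mean TPM ran the other way, at 1.15 and 2.58, so its direction is not settled by these tables.

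Direction was also counted by family. Genes of a family share reads and libraries, so they are not replicates of the family. Of 12 replication-dependent H3 genes 11 were lower in replicate 2, with a median of -0.13, against 27.4% of all genes lower on TPM, and their sum was 414 and 373 TPM. Of other protein-coding genes with transcripts under 600 nucleotides 58.8% were lower, and the H3 transcripts ranged from 411 to 1820 nucleotides. The 11 include Hist2h3c1, whose direction is not settled. The count was 11 of 12 in each other scaling tried except posterior mean TPM, where it was 10 of 12. The share of all genes that were lower was 26.1% on posterior mean TPM, 37.5% on FPKM and 51.3% on TMM-scaled CPM. All 5 H1 genes compared were higher in replicate 2, with a median of 0.14, a direction that 72.3% of all genes shared. With CPM on TMM factors 4 of 5 were higher, against 48.7% of all genes. H2A (7 higher, 9 lower), H2B (8 higher, 4 lower) and H4 (5 higher, 4 lower) were mixed, and H4 became 3 higher and 6 lower on FPKM and on TMM-scaled CPM. The 7 variants were all higher on TPM, 6 of 7 on posterior mean TPM, 4 of 7 on FPKM and 2 of 7 on TMM-scaled CPM. The share of all genes that were higher was 72.3%, 73.6%, 62.2% and 48.7% in these scalings.
Transcript length moved with these differences. Other protein-coding genes with transcripts under 600 nucleotides had a median of -0.03 (240 genes), those of 600 to 1200 nucleotides 0.03 (1351 genes) and longer ones 0.11 (9154 genes). The shares lower in replicate 2 were 58.8%, 40.3% and 22.5%. Most replication-dependent histone transcripts are short, and the part of length in the differences was not tested. Neutrophil markers were lower in replicate 2 (medians of 492 and 366 TPM) and megakaryocyte markers were higher (medians of 84.1 and 105 TPM). The part of either was not tested.

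Beyond 2 counting errors, 11 of 61 histone genes with 10 or more reads in both libraries were higher in replicate 2 and 4 were lower, against 38.0% and 7.49% of all genes. Here a counting error took in the posterior SD of both counts, so genes with widely shared reads were less readily called. It leaves out the variation between embryos, for which 2 livers give 1 difference per gene. The higher genes were H1f0, H2afx, H2afz, H3f3a, H3f3b, Hist1h1c, Hist1h1e, Hist1h4i, Hist2h2ac, Hist2h2be and Hist3h2a. On log2(TPM + 1) the median difference of all genes was itself 0.095. H2afz (0.035), H3f3b (0.067) and H3f3a (0.082) lay below that median. The genes lower in replicate 2 were Hist1h2ap, Hist1h3c, Hist1h3i and Hist3h2ba. Of 11 replication-dependent H3 genes in this count, only Hist1h3c and Hist1h3i were thus lower. Among them the widest gaps were those of Hist1h3c, at 6.76 and 4.24 TPM, and of Hist2h2be, at 5.22 and 7.48 TPM.

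Several variants are read from more than 1 annotated transcript. H3f3a-201 took 68.8% and 67.9% of the TPM of H3f3a, with the short H3f3a-204 at 24.3% and 24.95%. H3f3b-201 took 76.0% and 72.8%, H2afz-201 95.4% and 96.1%, and H2afy-201 65.8% and 64.1% of their genes. For H2afv the leading transcript depended on the unit: H2afv-201 (519 nucleotides) took 71.5% and 68.0% of TPM but 40.7% and 36.8% of reads, the rest going to H2afv-202 (1633 nucleotides). Among replication-dependent genes with several transcripts, Hist1h2bp changed leader between livers, with Hist1h2bp-201 at 88.4% and 18.9% of a gene at 2.60 and 3.51 TPM.

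Genes that make, carry and use histones were present in both livers. Of 18 measured genes for the transcription and end-processing of histone mRNA, 17 reached 1 TPM in both livers, with medians of 19.1 and 20.1 TPM. Slbp, which binds the stem-loop, was the highest at 239 and 257 TPM, followed by the cap-binding gene Ncbp1 (33.4 and 38.6 TPM) and Srrt (31.5 and 34.4 TPM). The lowest was Zfp473, which encodes a zinc finger protein of the histone processing complex, at 0.66 and 0.90 TPM.
All 22 histone chaperone and exchange genes reached 1 TPM, with medians of 27.3 and 31.2 TPM. Rbbp4 (193 and 200 TPM) and Rbbp7 (155 and 157 TPM), which bind histones in several chromatin complexes, and Ssrp1 (130 and 149 TPM), a subunit of the FACT complex, were highest, and Ubn2 (2.80 and 3.29 TPM), of the H3.3 chaperone complex, was lowest by mean, though Hira (2.77 and 3.44 TPM) was lower in replicate 1. All 12 genes of DNA synthesis reached 1 TPM, from Gins2 (51.3 and 51.5 TPM) to Rrm2 (317 and 329 TPM), Pcna (290 and 308 TPM) and Mcm6 (189 and 206 TPM). Their medians, 135 and 147 TPM, lay near those of the variant histones and above those of the replication-dependent genes.
Of 11 further variant histone genes 4 reached 1 TPM in both livers and 5 were listed at 0 in both. Cenpa, the centromere H3, stood at 151 and 167 TPM and H2afj at 46.8 and 45.4 TPM. H3f3c, annotated as a processed pseudogene, was listed at 297 and 277 TPM with a posterior SD of 2.78% and 3.62%. It is among 15 genes that share windows with H3f3a.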

How the data were processed

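Total RNA of 2 fetal livers was sequenced, 1 library each. For each library the authors deposited gene and transcript tables, whose accompanying notes name mm10 and GENCODE M4. The aligner, counter and strand setting, not given in the sources used here, stay unknown. Per the file headers, the tables hold expected counts (estimated reads, with reads of several loci divided between them), TPM and FPKM as deposited by the authors, each transcript's percent of its gene, and a posterior mean and SD of each count. The effective length was 99 nucleotides below the length. Without known strand handling, reads of overlapping genes, such as the small RNA genes annotated opposite most H2A genes, cannot be told apart from those of the histone.

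Rows were joined by unversioned identifier to GENCODE M21. Detection was set at 1 TPM, and ratios used log2(TPM + 1) where the mean reached 1 TPM, with 1 as the pseudocount. A count was called uncertain where its posterior SD passed 10% of its posterior mean. Limits for a count of 0 used 3 reads. Depth was 37059776 and 26908926 mouse reads, where 1 TPM of a 482-nucleotide transcript such as Hist1h2ap is about 16.0 and 11.1 reads. Limits cover counting only, and counting errors cover counting and the posterior SD of the counts. Amplified reads need not be independent, which neither covers. Whether the replicates came from separate litters is not stated beyond the labels' collection dates. The sequence features, windows and promoters came from M21 transcripts and RefSeq promoters, and all windows were matched on both strands. The searches and the 2-fold count were tested on simulated data.

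Every member of the rule could be named: full values were given for members at 10 TPM or more in either liver, the others by range, count or for a stated feature, and of each further gene list the 3 highest and the lowest. Cenpa, H2afj and H3f3c were the 3 highest of theirs. The members and lists were chosen with earlier results of these data known. The alternatives were other units, thresholds, pseudocounts, denominators and single libraries. TMM factors (edgeR, factors only, from rounded expected counts) scaled 1 of them. Python 3.11.15, numpy 2.4.6, pandas 2.3.3, scipy 1.17.1, matplotlib 3.10.9, R 4.3.3 and edgeR 4.0.16 were used.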

Additional observations from a re-analysis of the deposited data

Results flagged for a closer look

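The selection took protein-coding genes alone, and 3 rows annotated as histone pseudogenes had reads above the limit that a count of 0 allows. Hist1h2aj stood at 8.33 and 9.07 TPM (mean 8.70) with a posterior SD of 38.8% and 40.5%, a wide uncertainty in how reads were divided among copies. Hist1h2al stood at 1.53 and 0.90 TPM (mean 1.22), from 17.8 and 7.29 estimated reads. Hist3h2bb-ps stood at 0.47 and 1.46 TPM (mean 0.96), from 7.16 and 15.5 estimated reads. The libraries hold no control sample to set these against, and their sum is small beside every family total given above.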

How the results depend on the processing

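No paired analysis was possible because there was 1 group. The share of histones in mouse TPM, 1.245% as the mean of both livers, was 0.747% by expected counts, 1.22% by posterior mean TPM, 2.04% with the adult globin genes left out of the total and 1.12% over all rows. It was 0.614% without Hist1h2ap, an alternative chosen after seeing the data, under which the variant share of H2A was 74.2% in place of 17.97%. By expected counts, which favour long transcripts, the variant shares were 36.5% in H2A, 94.2% in H3 and 35.5% in H1, and the family sums were 8006 (H1), 132019 (H2A), 4738 (H2B), 87757 (H3) and 6825 (H4) reads, so H1 passed H4 in order. The H2A sum by posterior mean TPM was 7366. The median of replication-dependent genes, 6.49 TPM, was 6.66 on FPKM, 3.20 on CPM and 10.1 TPM over genes that reached 1 TPM in each liver, and the variants' median was 209 on CPM. The median log2 difference of members, 0.01, was -0.04 on FPKM and -0.10 on TMM-scaled CPM. The count of 2-fold differences, 2, was 3 with a pseudocount of 0.1, 0 with a pseudocount of 5, 0 from 10 TPM and 1 with posterior mean TPM. Uncertain counts, 24 genes at 10%, were 9 at 20% and 32 at 5%.

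Single libraries gave 1.243% to 1.247% for the share, 60 genes detected in either alone, medians of 6.42 to 6.56 and 138 to 157 TPM, and 24 to 26 uncertain counts. Family sums were 175 to 198 (H1), 7476 to 7495 (H2A), 205 to 210 (H2B), 2724 to 2813 (H3) and 542 to 558 TPM (H4), and variant shares 17.6% to 18.3% (H2A), 84.8% to 86.7% (H3) and 19.7% to 20.1% (H1).

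With 2 livers the spread between embryos is poorly known. TPM of short transcripts depends on the annotated length: Hist1h4d has 393 nucleotides in the annotation used and 1138 in M21.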
